A study of Mus musculus with 12 samples.

Results

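The genes described here encode subunits of the oxidative phosphorylation system in mouse pancreas, together with a few assembly factors that share their name prefixes. They were taken as the array rows annotated with exactly 1 protein-coding gene symbol beginning with Ndufa, Ndufb, Ndufc, Ndufs, Ndufv, Sdh, Uqcr, Cox4 to Cox8 or Atp5, and where a gene had several rows its highest-mean row stood for it. This gave 92 of the 30145 genes named on the array, of which 81 encode subunits and 11 encode assembly or supercomplex factors. Of the subunit genes, 73 are used in most tissues and 8 are complex IV isoforms known from particular tissues such as muscle, heart, lung or testis.

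Total RNA of pancreas from mice aged 6 months was hybridised to 12 Affymetrix expression arrays. The control group (6 arrays, titled normal pancreas) had the genotype Pdx1/Cre. The HuR group (6 arrays, titled experimental pancreas) had the genotype Pdx1/Cre + Traffic-HuR, so both groups carried Cre under the promoter of Pdx1, a transcription factor gene of pancreatic progenitors and beta cells. HuR, the protein of Elavl1, binds AU-rich elements in messages, and the study asked what elevated HuR does to the pancreas. Sex, strain and the animal behind each array are not in the labels, so p-values measure the spread between these samples, which may be technical.

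Oxidative phosphorylation takes place in the inner mitochondrial membrane. Complex I accepts electrons from NADH and complex II from succinate, complex III passes them to cytochrome c, complex IV hands them to oxygen, and complex V uses the proton gradient that results to make ATP. Acinar cells spend this ATP on the synthesis and release of digestive enzymes, and beta cells couple it to insulin release.

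All levels are deposited log2 values, differences are HuR minus control, SE is the limma standard error and means carry the SD over 6 arrays. Precision is limited by the number of arrays. Elavl1 lay at 5.83 to 6.12 with a median of 6.02 in the controls and at 6.05 to 6.46 with a median of 6.21 in the HuR group. The groups overlapped, with 5 of 6 HuR arrays above every control, and the difference was 0.24 (SE 0.075), with a limma adjusted p of 0.878 and an exact two-sided permutation p of 0.0108. Of 9 measured acinar cell marker genes, 5 were at 19.9, the top of the scale, on every array. Control 2 and HuR 2 had the highest adipocyte list means of their groups, at 8.61 and 10.01. The other arrays lay between 6.45 and 8.46, and HuR 1 at 8.46 lay close to control 2. In the B and plasma cell list control 2 and HuR 2 stood apart, at 8.56 and 8.68, where the next array was HuR 1 at 7.69.

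No oxidative phosphorylation gene was called different between the genotypes. At a limma adjusted p under 0.05 the background was 0% of 30145 genes, 0 of the 92 genes passed, and their smallest adjusted p was 0.878. At an unadjusted p under 0.05, 3 of the 92 passed, or 3.26%, against 5.5% of all genes. These were Ndufa5 with a higher HuR mean, where 2.87% of all genes passed in that direction, and Ndufv3 and Cox8c with a lower one, where 2.63% did. The HuR and control arrays overlapped in each of the 92 genes, while they did not overlap in 0.299% of all genes. The count of 3 became 5 without control 2, 5 without control 5 and 6 without HuR 4, where 7.32%, 5.17% and 6.67% of all genes passed. Without control 2 the groups no longer overlapped in 2 genes, Cox4i1 and Ndufv1, both lower in the HuR group, and without control 5 in 1 gene, Cox6a2, against 0.989% and 0.488% of all genes.

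The measured differences were small and their intervals narrow, as they were for most genes on the array. The mean was higher in the HuR group for 35 of the 92 genes and lower for 57, with a median difference of -0.028 against -0.0033 over all genes. Differences ran from -0.24 to 0.36, with 67 genes within 0.1 of 0 and 4 beyond 0.2, which were Cox7a2l, Ndufa4, Cox6a2 and Atp5g2. Of all 30145 genes, 21380 lay within 0.1 of 0 and 2972 beyond 0.2. Among the 85 genes with no plateau, meaning no value repeated on 3 or more arrays, the 95% interval lay inside a 2-fold difference for 85 and inside a 1.41-fold difference for 77. Over all genes these shares were 97.6% and 88.2%, beside 100% and 91.3% of the 92. The outermost bounds were -0.68 for Atp5g2 and 0.87 for Ndufa4, which correspond to 1.60-fold lower and 1.83-fold higher. The split between higher and lower means depended on the scaling and on single arrays. It was 19 higher and 73 lower after a new quantile normalization, where 45.9% of all genes were higher against 47.9% before. It was 21 higher without control 2 and 50 higher without HuR 4, and 15 higher without both control 2 and HuR 2.

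**Figure D1:**
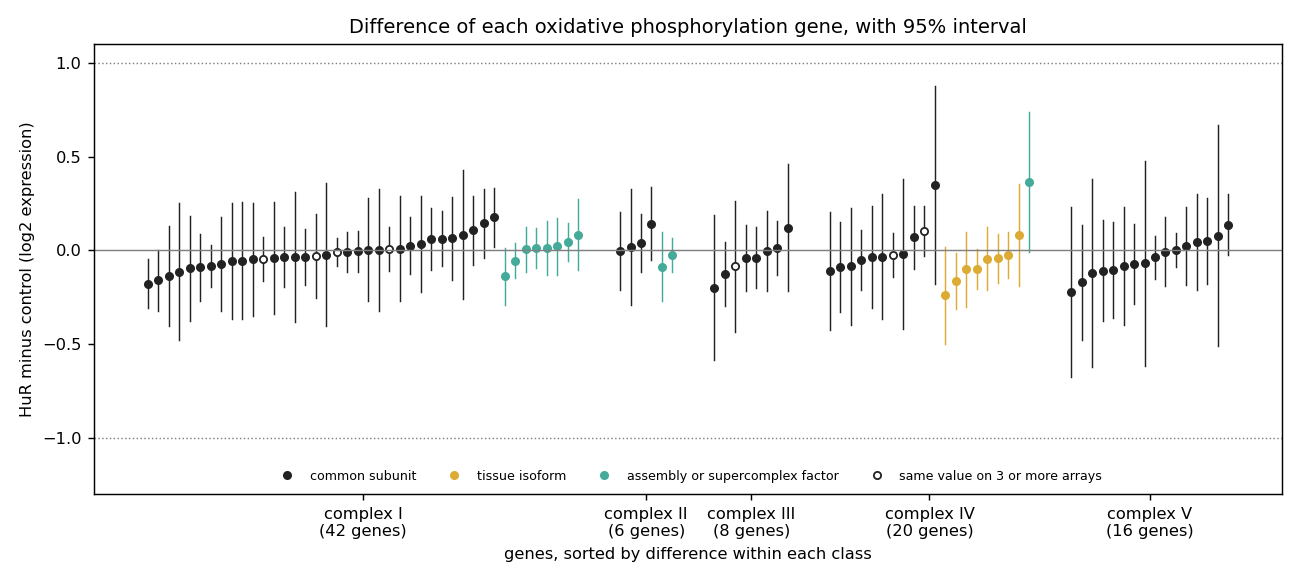
Difference between HuR and control arrays (HuR minus control, log2 expression, vertical axis) of each of the 92 genes, grouped by complex along the horizontal axis. Points are differences, bars are 95% limma intervals, open points are genes with the same value on 3 or more arrays, and dotted lines mark 2-fold. The differences lie between -0.24 and 0.36, and no interval reaches either dotted line.

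Complex I, the NADH dehydrogenase, had 34 measured subunit genes, 13 with a higher and 21 with a lower HuR mean and a median difference of -0.026. Its 6 core subunit genes, most of whose proteins carry the flavin or iron-sulfur centres, had 2 higher and 4 lower means and a median of -0.046. The 28 accessory subunit genes had 11 higher and 17 lower means and a median of -0.026. The 8 assembly factor genes had 6 higher and 2 lower means and a median of 0.013, of which Ndufaf3 had the lowest difference at -0.14 (SE 0.069).

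Ndufv3, an accessory subunit of the NADH-binding module of complex I, lay at 9.30, 9.47 and 9.67 (lowest, median and highest control) against 9.23, 9.26 and 9.40 in the HuR group. The HuR arrays clustered at the low end, with 4 of 6 below every control, while HuR 2 and HuR 3 lay within the control range. The control mean was 9.46 ± 0.12 and the HuR mean 9.29 ± 0.068 (SD, n = 6 each), which differed by -0.18 (SE 0.059), with an unadjusted limma p of 0.0120 and an exact permutation p of 0.0108. The difference ran from -0.26 to -0.14 over the alternatives, with a smallest adjusted limma p of 0.538.

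Ndufa5, an accessory subunit of the peripheral arm, went the other way. It lay at 7.58, 7.78 and 7.92 in the controls and at 7.87, 7.90 and 8.19 in the HuR group. The groups overlapped, HuR 2 and HuR 3 lay above every control, and HuR 2 stood far above the other HuR arrays. The difference was 0.18 (SE 0.072), with a limma p of 0.0305 before adjustment and 0.0303 by exact permutation, and it was 0.11 without both HuR 2 and control 2. Ndufb7, an accessory subunit of the membrane arm, differed by -0.16 (SE 0.074), with 3 of 6 HuR arrays below every control and an exact permutation p of 0.0433. Ndufc2, another membrane arm subunit, differed by 0.14 (SE 0.084) with 3 HuR arrays above every control. Ndufb4b differed by 0.084 (SE 0.157) and turned to -0.034 without control 2 and -0.099 without both control 2 and HuR 2, and signal from its close relative Ndufb4 cannot be told apart from its own here.

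All 4 subunit genes of complex II, succinate dehydrogenase, were measured, and 3 had a higher HuR mean. Sdha, the flavoprotein that oxidises succinate, lay at 8.75, 8.91 and 9.08 in the controls and at 8.96, 8.99 and 9.42 in the HuR group. Only HuR 2 lay above every control, and the difference was 0.14 (SE 0.089), with a 95% interval from -0.053 to 0.33. It was 0.034 without both HuR 2 and control 2. The iron-sulfur subunit gene Sdhb differed by 0.040 (SE 0.072), and the membrane anchor genes Sdhc and Sdhd by -0.0032 (SE 0.095) and 0.018 (SE 0.141). The signs of these last 3 genes depended on the arrays or scaling used, and their intervals stayed within -0.29 and 0.33. The assembly factor genes Sdhaf1 and Sdhaf2 both had lower HuR means, with a median difference of -0.054.

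Complex III, the cytochrome bc1 complex, had 2 of 8 subunit genes with a higher HuR mean and 6 with a lower one, and a median difference of -0.040. Uqcrc1, a core protein of the matrix side, differed by -0.13 (SE 0.078) and by -0.19 without control 2. The other core protein gene, Uqcrc2, differed by -0.038 (SE 0.074), and Uqcrfs1, the Rieske iron-sulfur protein, by 0.013 (SE 0.065). Uqcrh, the hinge protein, lay at 10.13, 10.62 and 11.00 in the controls and at 9.78, 10.41 and 10.81 in the HuR group. Its lowest value was on HuR 6 and its highest on control 5, the groups overlapped, and the difference was -0.20 (SE 0.177). Uqcr10, a small subunit near cytochrome c1, differed by 0.12 (SE 0.156), with 2 HuR arrays above every control and 2 below every control.

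Complex IV, cytochrome c oxidase, held both of the highest differences. Cox7a2l, also known as SCAF1, is a relative of the COX7A subunits that joins complexes III and IV in supercomplexes. It lay at 9.66, 10.12 and 10.30 in the controls and at 9.99, 10.55 and 10.93 in the HuR group. HuR 3, 4, 5 and 6 lay above every control, and HuR 1 and 2 lay within the control range. The control mean was 10.09 ± 0.23 and the HuR mean 10.45 ± 0.38 (SD, n = 6 each), which differed by 0.36 (SE 0.171) or 1.29-fold. The limma adjusted p was 0.903 and the exact permutation p was 0.0779. The difference ran from 0.27 to 0.46 over the alternatives, with a smallest adjusted limma p of 0.538.

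Ndufa4, named as a complex I gene but now counted as a subunit of complex IV, lay at 10.38, 10.61 and 10.93 in the controls and at 10.05, 10.99 and 11.92 in the HuR group. The HuR arrays spread on both sides of the controls, with 4 above every control and HuR 4 below every control. The difference was 0.35 (SE 0.242), with a p of 0.223 by exact permutation, and it was 0.53 (SE 0.192) without HuR 4, 0.15 without HuR 2 and 0.11 without both HuR 2 and control 2. Cox7a2l and Ndufa4 thus had similar differences in the group means but not on the same arrays: Cox7a2l was highest on HuR 4 and Ndufa4 was lowest there.

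The 11 complex IV subunit genes used in most tissues, Ndufa4 among them, had 3 higher and 8 lower HuR means and a median difference of -0.035. Cox4i1, the common isoform of subunit 4, differed by -0.050 (SE 0.073), Cox6a1 by -0.11 (SE 0.144), Cox6b1 by -0.036 (SE 0.125), Cox7a2 by -0.019 (SE 0.184) and Cox8a by -0.085 (SE 0.142). Cox7b, which held the same value on 3 arrays, differed by 0.10 (SE 0.060), and a plateau may compress its difference. Cox6b1 and Cox7a2 took the other sign without control 5, control 6 or HuR 4, and Cox7a2 also without HuR 6.

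The tissue isoforms of complex IV lay low on the array. Of the 8, 4 were above 4.52, the median over all rows, and the 23 background rows had a median of 3.74. They had 1 higher and 7 lower HuR means, with a median difference of -0.072. Cox6a2, the heart and muscle isoform of subunit 6a, lay at 5.20, 5.53 and 5.71 in the controls and at 4.79, 5.37 and 5.47 in the HuR group. The groups overlapped and HuR 4 lay below all other arrays. The difference was -0.24 (SE 0.119), with an exact permutation p of 0.0649.

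Cox8c, an isoform of subunit 8 known from testis, lay at 4.43, 4.53 and 4.63 in the controls and at 4.09, 4.39 and 4.53 in the HuR group, near the median row level. It had 4 of 6 HuR arrays below every control, HuR 4 and HuR 5 were within the control range, and the difference was -0.16 (SE 0.069), with an unadjusted limma p of 0.0359 and an exact permutation p of 0.0260. Cox8b, the isoform of subunit 8 in heart, muscle and brown fat, lay near the background rows, with a control mean of 3.71 ± 0.091 and a HuR mean of 3.61 ± 0.065 (SD, n = 6 each). The difference was -0.099 (SE 0.050), with an exact permutation p of 0.0411. Cox4i2, the lung isoform of subunit 4, differed by -0.042 (SE 0.060), Cox7a1, the muscle and brown fat isoform of subunit 7a, by -0.10 (SE 0.092) and Ndufa4l2, a relative of Ndufa4 induced in hypoxia, by -0.026 (SE 0.056). The testis isoform genes Cox6b2 and Cox7b2 differed by -0.044 (SE 0.076) and 0.082 (SE 0.124).

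Markers of muscle and brown fat were read beside these isoforms. Of 7 brown adipocyte markers, 2 of which are Cox7a1 and Cox8b themselves, 1 lay above the median row, and the defining gene Ucp1 lay at 3.76 ± 0.18 (SD, n = 6) and 3.70 ± 0.072 (SD, n = 6). The list mean ran from 4.05 to 4.28 in the controls and from 4.01 to 4.16 in the HuR group. Of 9 muscle markers, 3 had a higher and 6 a lower HuR mean. The muscle list mean ran from 4.73 to 4.91 in the controls and from 4.77 to 4.91 in the HuR arrays. The part of these cells in the isoform values was not tested. In bulk tissue, fewer cells of a type and less RNA per cell cannot be told apart.

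**Figure D2:**
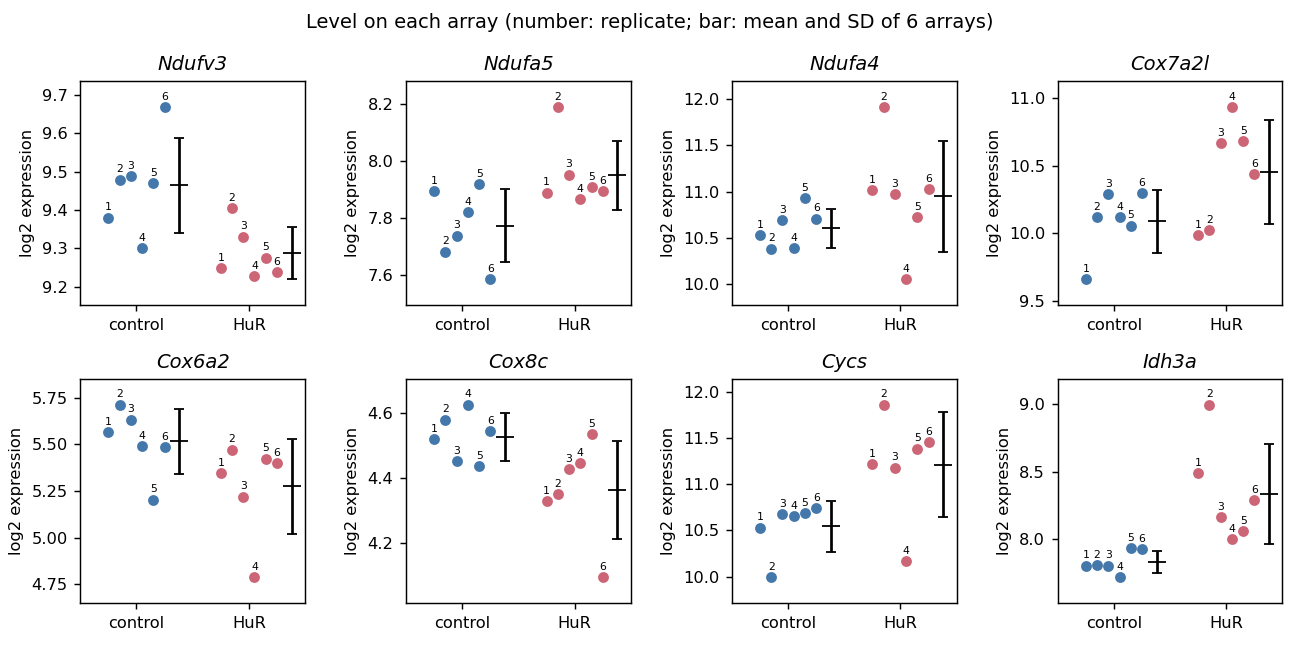
Log2 expression (vertical axis) on each array of 6 oxidative phosphorylation genes and of Cycs and Idh3a, with control arrays in blue, HuR arrays in red, replicate numbers beside the points, and bars for the mean and SD of 6 arrays. The groups overlap in each panel except Idh3a, and HuR 4 is the highest array for Cox7a2l and the lowest for Ndufa4.

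Complex V, ATP synthase, had 6 of 16 subunit genes with a higher HuR mean and 10 with a lower one, and a median difference of -0.053. The 4 genes of the catalytic F1 part had 2 higher and 2 lower means and a median of 0.0078. The 12 genes of the membrane part and stalk had 4 higher and 8 lower means and a median of -0.071. Atp5e, the epsilon subunit of F1, differed by 0.049 (SE 0.105). Atp5j2, the f subunit of the membrane part, differed by 0.14 (SE 0.075), with 4 of 6 HuR arrays above every control and an exact permutation p of 0.0996.

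Atp5g1, Atp5g2 and Atp5g3 encode the same mature c subunit, the proton-carrying ring, from separate genes. Atp5g1 lay at 10.63, 10.87 and 11.16 in the controls and at 10.16, 10.73 and 11.11 in the HuR group. HuR 4 was the lowest array, and the groups overlapped. The differences were -0.17 (SE 0.140) for Atp5g1, -0.22 (SE 0.208) for Atp5g2 and -0.074 (SE 0.098) for Atp5g3, so that all 3 had lower HuR means within their spread. The negative difference of Atp5g2 rests largely on control 6, which lay at 13.40 where the other controls lay at 12.16 to 12.78, and it was -0.058 without that array.

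For 2 genes of the membrane part the chosen row may read a copy. The identifier of the Atp5l row names chromosome 5 and that of the Atp5g2 row chromosome 7, while RefSeq places Atp5l on chromosome 9 and Atp5g2 on chromosome 15. These were the only such rows among the 96 rows of the 92 genes, and identifier and gene named the same chromosome in 99.6% of named rows. Atp5l, the g subunit, differed by -0.069 (SE 0.250), and the brightest Atp5l row on its own chromosome differed by 0.089 (SE 0.102). The rows of the pseudogenes Atp5l-ps1 and Atp5l2 differed by -0.20 (SE 0.189) and -0.19 (SE 0.202) and, like the chosen Atp5l row and its own-chromosome counterpart, were lowest on HuR 4. The own-chromosome row of Atp5g2 differed by -0.20 (SE 0.192), close to the -0.22 of the chosen row.

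The subunit genes varied together from array to array within both genotypes. For each of the 66 commonly used subunit genes without a plateau, each array was set against the gene's own mean over 12 arrays, and these deviations were averaged. Control 2 stood at -0.22, with 60 of 66 genes below their mean and 25 at their lowest value, and HuR 4 stood at -0.23, with 55 below and 23 at their lowest. Control 6 stood at 0.20, with 58 genes above their mean and 24 at their highest, and HuR 2 at 0.17, with 49 above and 20 at their highest. The lowest pair of arrays and the highest pair thus each held 1 control and 1 HuR array. The genotypes differed by -0.019 in this mean, less than its SD of 0.16 among the 6 control arrays and 0.13 among the 6 HuR arrays.

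The signs of these arrays were shared by the complexes. Control 1, control 2 and HuR 4 lay below 0 in all 5 complexes, and control 3, control 5, control 6, HuR 1 and HuR 2 lay above 0 in all 5. The range over arrays was 0.39 for complex I, 0.36 for complex II, 0.32 for complex III, 0.68 for complex IV and 0.65 for complex V. The 7 complex III genes without a plateau stood at -0.043 on HuR 4, with 4 of 7 above their mean, and were lowest on HuR 6 at -0.19. This mean leaves out Uqcrb, which was on a plateau. Uqcrb lay at 11.50 on HuR 4 and between 12.36 and 12.68 elsewhere, so the higher complex III value on HuR 4 depends on leaving it out. The differences between the genotypes in the complex means were -0.016, 0.049, -0.039, -0.00078 and -0.041. The 11 assembly and supercomplex factors had a mean deviation of 0.037 on HuR 4, with 6 below their own mean, 3 at their lowest, and Cox7a2l at its highest. The 27 assembly factors outside the prefixes had their lowest list mean on HuR 4 at 6.70, followed by control 2 at 6.75.

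**Figure D3:**
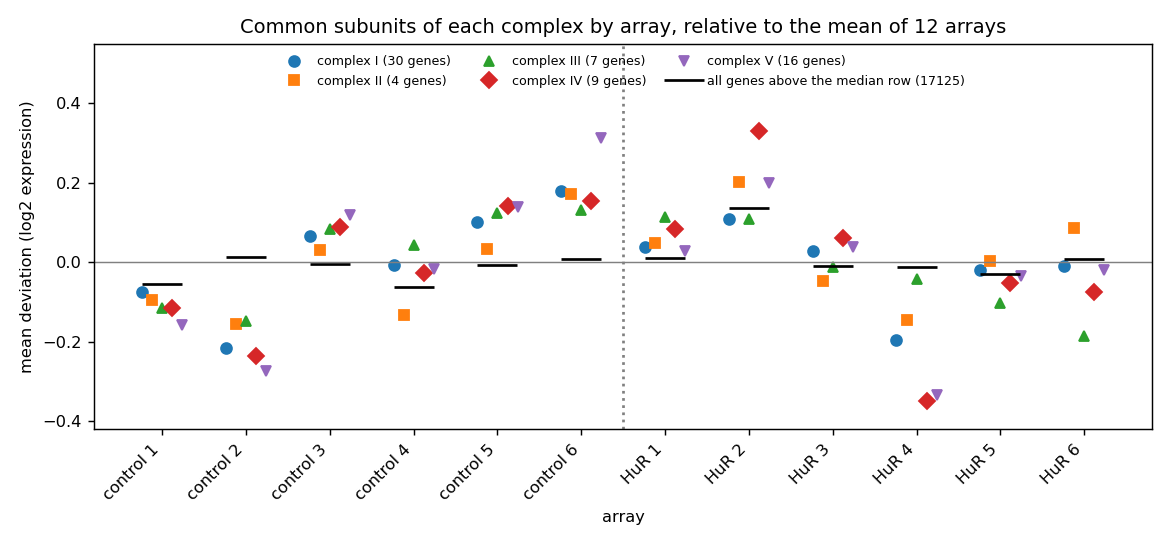
Mean deviation from the 12-array mean (log2 expression, vertical axis) of the commonly used subunit genes of each complex, by array. Coloured symbols are complexes, black bars are the 17125 genes above the median row without a plateau, and the dotted line divides control from HuR arrays. Control 2 and HuR 4 lie below 0 and control 6 and HuR 2 above 0 in all 5 complexes. Complex III stands at -0.043 on HuR 4 without Uqcrb, a plateau gene that was lowest on that array.

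The same arrays were not shifted in the same way over all genes. Over 17125 genes above the median row without a plateau, control 2 stood at 0.014, HuR 4 at -0.013 and control 6 at 0.0089, with 55.8%, 54.5% and 46.7% of genes below their own mean. HuR 2 stood at 0.14, close to the 0.17 of the subunit genes. Several marker lists stood apart on the same arrays. The acinar list, in which 6 of 9 genes were on a plateau, had its lowest mean on control 2 at 15.98 and its highest on control 6 at 16.51, with HuR 2 at 15.98 and HuR 4 at 16.10. The islet list was highest on control 2 at 11.98, and the other arrays lay between 10.32 and 11.27. The adipocyte list was highest on HuR 2 at 10.01 and lay at 7.02 on HuR 4 and 6.45 on control 6. The part of tissue composition and of RNA quality in the array pattern was not tested.

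The low values on HuR 4 were not shared evenly. Ndufs8, an iron-sulfur core subunit of complex I, lay at 9.81 on HuR 4 and between 10.41 and 10.97 elsewhere. Atp5md, a small membrane subunit of ATP synthase, lay at 10.30 on HuR 4 and between 11.16 and 11.98 elsewhere. In contrast, Ndufs7, another core subunit, lay at 9.29 on HuR 4, above the other HuR arrays at 8.66 to 8.96, and Ndufa6, an accessory subunit, was at its highest there at 9.92. These 4 genes were chosen after their values were seen.

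**Figure D4:**
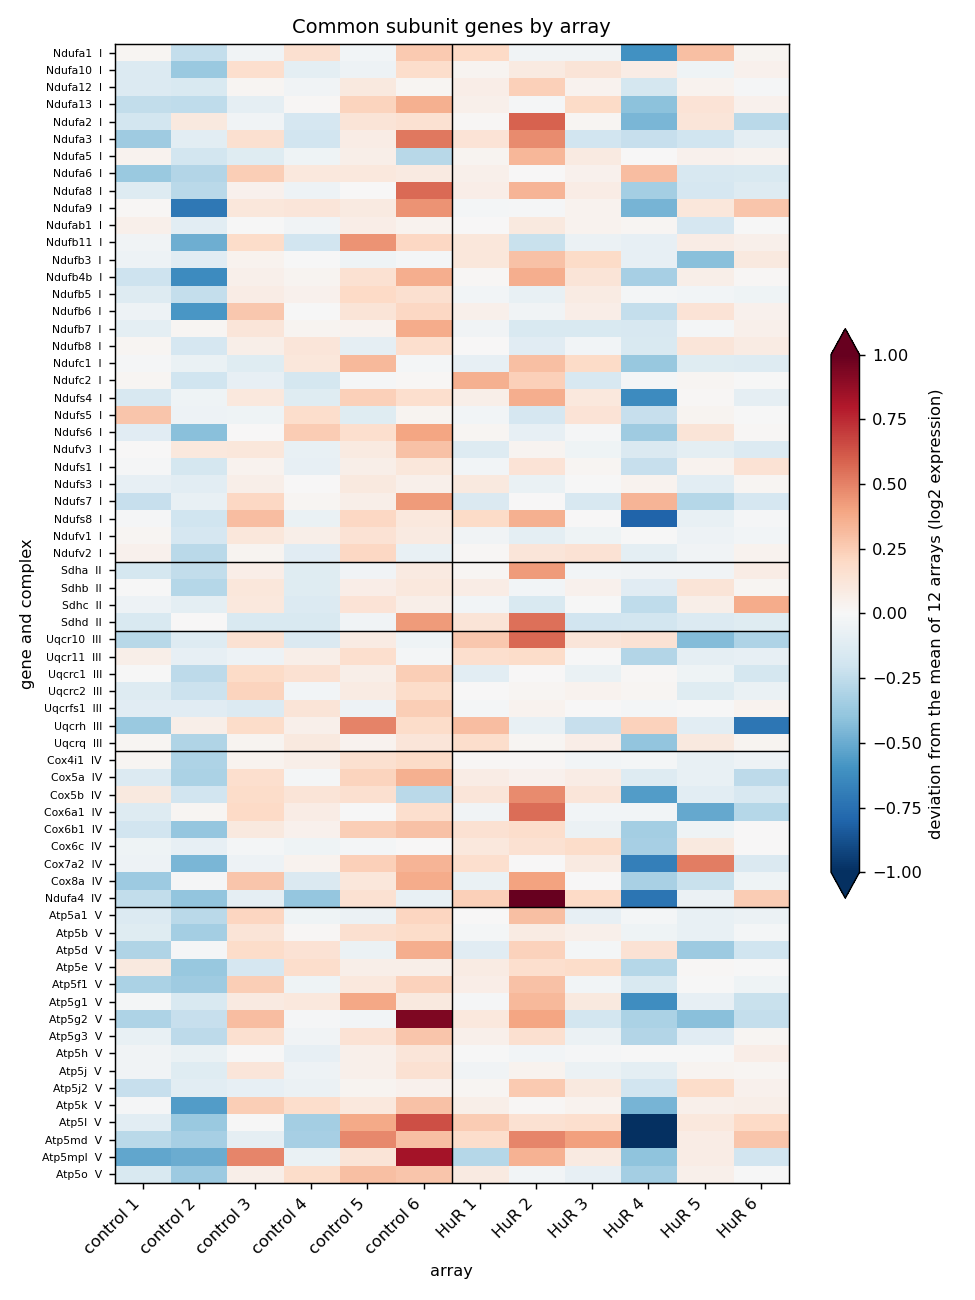
Deviation of each commonly used subunit gene without a plateau from its own mean over 12 arrays (colour, log2 expression), with genes in rows by complex and arrays in columns. Control 2 and HuR 4 are mostly blue (60 and 55 of 66 genes below their mean) and control 6 is mostly red (58 above).

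The promoters of the 92 genes, assembly factors and tissue isoforms among them, were searched for motifs of factors known for nuclear-encoded mitochondrial genes. The part of these factors in the variation over arrays was not tested. RefSeq windows of 300 bases (GRCm38.p6, 250 bases before and 50 after each start) were found for 76 of the 92 genes, 81 windows in all. The motifs, searched on both strands, were GCGCATGCG for NRF1, CCGGAAGT for ETS factors such as GABP, AAGATGGCG for YY1 and TATAAA for the TATA box. The NRF1 letters can overlap their own complement, and a window was counted once. NRF1 letters were found in 9 windows (11.1%, against 1.75% of 32851 windows of the same length), and YY1 letters also in 9 (11.1%, against 1.4%). ETS letters were found in 5 windows (6.17%, against 3.89%) and TATAAA in 9 (11.1%, against 13.6%). The windows had a median of 19 CpG against 7 over all windows and a GC content of 57.7% against 52.7%. A match describes letters and is not a measured binding site.

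The NRF1 matches on the strand of a subunit gene are shown as examples, with the motif in capitals and RefSeq coordinates of GRCm38.p6. The genes shown also matched on the opposite strand. They belong to complexes III, IV and V, but complex I held 3 of the 9 windows with NRF1 letters, as did complex V. Those of complex I were Ndufa8, matched on the opposite strand only, and the assembly factor genes Ndufaf4 and Ndufaf5. Uqcrc1 lies at chr9:108936668-108936696 on the plus strand, Cox6a1 at chr5:115349102-115349130, Atp5g2 at chr15:102671071-102671099 and Atp5k at chr5:108434431-108434459 on the minus strand.
Uqcrc1: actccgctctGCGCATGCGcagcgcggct
Cox6a1: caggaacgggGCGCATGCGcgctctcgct
Atp5g2: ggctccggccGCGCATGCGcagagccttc
Atp5k: tttcactgcgGCGCATGCGcctttctggc

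The YY1 letters lay on the strand of the gene in 9 of 9 windows and after the start in 7 of them (77.8%), against 69.6% and 43.8% of all windows with the letters. Of the 9 windows, 7 belong to complex I genes, which hold 41 of the 81 windows, and 2 of the 7 are overlapping windows of Atp5sl with the same match. The matches of 3 complex I subunits and of Atp5j2 are shown as examples of letters that lie after the start of the gene, with the motif in capitals. Ndufs4 lies at chr13:114388045-114388069 and Ndufs6 at chr13:73328433-73328459, both on the minus strand and cut off where the window ends. Ndufs7 lies at chr10:80249463-80249491 on the plus strand and Atp5j2 at chr5:145191500-145191528 on the minus strand.
Ndufs4: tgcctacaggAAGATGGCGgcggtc
Ndufs6: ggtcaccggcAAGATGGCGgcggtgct
Ndufs7: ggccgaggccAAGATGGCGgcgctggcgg
Atp5j2: ccaggacttcAAGATGGCGtcactcggtg

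Genes with these letters were found among those with negative and positive differences. Of the NRF1 genes shown, Uqcrc1 differed by -0.13, Cox6a1 by -0.11, Atp5g2 by -0.22 and Atp5k by -0.082 (SE 0.144). Among those not shown, Ndufa8 differed by -0.054 (SE 0.143), Uqcr11 by -0.042 (SE 0.080) and Atp5l by -0.069 (SE 0.250). Ndufaf4 and Ndufaf5, also not shown, differed by 0.021 (SE 0.071) and 0.012 (SE 0.049). Of the YY1 genes shown, Ndufs4 differed by -0.058 (SE 0.141), Ndufs6 by -0.096 (SE 0.128), Ndufs7 by -0.14 (SE 0.123) and Atp5j2 by 0.14. The YY1 genes not shown, Ndufa9, Ndufc1, Atp5j and Atp5sl, differed by -0.022 (SE 0.175), -0.073 (SE 0.114), -0.038 (SE 0.053) and 0.014 (SE 0.065). None of these differences exceeded the spread between arrays at an unadjusted p under 0.05.

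The genes around the respiratory chain gave 2 of the larger differences. Cytochrome c, the carrier between complexes III and IV, is encoded by Cycs in somatic tissue. Cycs lay at 9.99, 10.66 and 10.74 in the controls and at 10.17, 11.30 and 11.86 in the HuR group. HuR 4 lay within the control range and the other 5 HuR arrays lay above every control. The control mean was 10.55 ± 0.28 and the HuR mean 11.21 ± 0.57 (SD, n = 6 each), which differed by 0.67 (SE 0.240) or 1.59-fold. The limma adjusted p was 0.878 and the exact permutation p was 0.0281. The difference was 0.88 without HuR 4, where the adjusted limma p was 0.359, and 0.43 without both control 2 and HuR 2. On the list of electron carriers and related mitochondrial genes, 9 genes were measured, the assembly factor gene Atp5sl from the set above among them. Of these 4 had a higher and 5 a lower HuR mean with a median of -0.0068, and Cycs alone passed an unadjusted p under 0.05, which 2.87% of all genes did with a higher mean. Etfa, a subunit of the flavoprotein that brings electrons from fat oxidation, differed by 0.18 (SE 0.10).

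Idh3a, the catalytic subunit of the NAD-dependent isocitrate dehydrogenase that supplies NADH to complex I, separated the groups. It lay at 7.72, 7.81 and 7.93 in the controls and at 8.00, 8.23 and 8.999 in the HuR group. Every HuR array lay above every control, with HuR 2 highest, where 0.166% of all genes were separated in that direction. The difference was 0.50 (SE 0.145) or 1.42-fold, with a limma adjusted p of 0.878 and an exact permutation p of 0.00216, the lowest value possible with these 12 arrays. Over the alternatives it ran from 0.36 to 0.57, with a smallest adjusted limma p of 0.468. Of the 19 measured genes of the citric acid cycle and pyruvate entry, 11 had a higher and 8 a lower HuR mean, and the median was 0.023. Idh3a alone passed an unadjusted p under 0.05, so that 1 of 19 genes stands beside 5.5% of all genes. Pdhb, a subunit of pyruvate dehydrogenase, differed by 0.22 (SE 0.131). The adipocyte list was higher in the HuR group for 10 of 10 measured genes, with ranges of the list mean of 6.45 to 8.61 and 7.02 to 10.01, and it was highest on HuR 2. The macrophage list was higher for 7 of 7 genes, with ranges of 7.14 to 8.92 and 7.82 to 10.37, and was also highest on HuR 2. The T cell list was higher for 4 of 4 genes, with ranges of 4.77 to 5.04 and 4.89 to 5.35. The islet list was lower for 10 of 10, with ranges of 10.42 to 11.98 and 10.32 to 11.17. Of these 10 islet genes 3 were on a plateau, and Ins2 held the same value on 10 arrays and differed by -0.017 (SE 0.033). The part of these cell types in the values of Idh3a and Cycs was not tested.

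Regulators of mitochondrial biogenesis had 9 higher and 7 lower HuR means over 16 measured genes, with a median of 0.016 and 0 at an unadjusted p under 0.05 with limma. Ppargc1b, a coactivator of mitochondrial gene expression, had a control mean of 4.60 ± 0.054 and a HuR mean of 4.51 ± 0.065 (SD, n = 6 each), near the median row. Every HuR array lay below every control, where 0.133% of all genes were separated in that direction. The nearest arrays, HuR 6 at 4.548 and control 1 at 4.551, almost touched. The difference was -0.090 (SE 0.042), with a limma adjusted p of 0.903 and an exact permutation p of 0.00216. Gabpb1, a subunit of the ETS factor GABP, differed by 0.082 (SE 0.044).

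The 27 measured assembly factors outside the prefixes had 12 higher and 15 lower HuR means and a median of -0.013, with 1 of 27 at an unadjusted p under 0.05, beside 5.5% of all genes. This was Cox18, which inserts a complex IV subunit into the membrane, at -0.12 (SE 0.052), and Timmdc1, an assembly factor of complex I, differed by -0.15 (SE 0.069). The 12 measured carriers and uncoupling proteins had 5 higher and 7 lower HuR means, a median of -0.035 and 0 at an unadjusted p under 0.05 with limma. Vdac3, a channel of the outer membrane, differed by 0.13 (SE 0.070) and Slc25a12, an aspartate-glutamate carrier, by -0.14 (SE 0.084), with 5 of 6 HuR arrays below every control.

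The mitochondrially encoded subunits could not be compared. Of 13 such genes, 5 had rows, and 4 of these held a single value on all 12 arrays, among them ND3 and ND6 at the upper end of the scale. ND2, a membrane subunit of complex I, held the same value on 7 arrays and differed by -0.19 (SE 0.105), which a plateau may compress. Among the nuclear genes, 7 were on a plateau, and Ndufb9, an accessory complex I subunit, held the same value on 7 arrays, so that its difference of -0.031 (SE 0.102) carries little information.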

How the data were processed

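Each array gave log2 values that the authors made with RMA, a method of background correction, normalization and probe summary, per the labels. Per the submitters' processing notes, the tools were Expression Console 1.4 (Affymetrix) and, in addition, Transcriptome Analysis Console 3.1. Their settings were not given in the sources used here. Of 72688 rows, 6732 control rows were left out. In the platform annotation, 30604 of the 65956 rows tested had 1 symbol, 2146 had more than 1 and were left unnamed, and 33206 had none. All 92 gene symbols matched RefSeq (GRCm38.p6), 2 of them under a newer name (Atp5f1 as Atp5pb and Atp5sl as Dmac2). Prefixed rows left out were 3 pseudogenes and 4 rows with several symbols.

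The genotype difference was fitted over every row, without a block, by lmFit and eBayes of limma 3.58.1 (two-sided) in R 4.3.3, and p-values were adjusted by Benjamini-Hochberg over 30145 genes. Permutation tests used all 924 assignments. The fit was tested on simulated data. Python 3.11.15 with pandas 2.3.3 read promoter windows. Alternatives were a replicate block, only genes above the median row, quantile normalization, the mean of a gene's rows, array weights, each array left out, and control 2 and HuR 2 left out together.

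The gene set and the lists of related genes and cell markers were chosen with earlier results of these data known. Genes were named by rule: in each complex the brightest subunit without a plateau and the 2 of smallest p among higher and among lower means, all complex II subunits, tissue isoforms with their partners, and the 2 genes with the smallest p among assembly factors and in each related list. Genes outside the rule are promoter examples, examples of a plateau, counted genes of 5 or fewer, or stated as picked from their values.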

Additional observations from a re-analysis of the deposited data

Results flagged for a closer look

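Within groups of 6 arrays, 1 array lay far from the other 5 in 6 of 88 gene and group pairs tested, and chance alone gives about 1 in 20. On HuR 2, Ndufa5 lay at 8.191, with the next HuR array at 7.952, and Sdha lay at 9.422, with the next at 9.069. On HuR 4, Cox6a2 lay at 4.788, with the next HuR array at 5.22, and Atp5l lay at 11.909, with the next at 13.111. On control 6, Sdhd lay at 8.651, with the next control at 8.23. On control 2, Cox4i1 lay at 6.374, with the next control at 6.701. These 6 leave out the related genes that follow, in which an array also lay beyond the same cut. Cycs lay at 9.995 on control 2, with the next control at 10.53, and Ppargc1b at 4.374 on HuR 2, with the next HuR array at 4.517. On HuR 4, Slc25a12 lay at 8.851, with the next HuR array at 8.553, and Etfa at 10.782, with the next at 10.362.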

How the results depend on the processing

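No oxidative phosphorylation gene reached an adjusted limma p under 0.05 in any alternative run, and the smallest over them all and the named related genes was 0.359, for Cycs without HuR 4. Counts are over the 92 genes, while signs are given only for the 48 genes named by rule. After quantile normalization 19 of 92 genes had a higher HuR mean, and of the named genes Sdhb (-0.040), Uqcrfs1 (-0.039), Sdhd (-0.037) and Atp5e (-0.0013) took the other sign. With array weights 29 were higher, beside 50.2% of all genes, and of the named genes Sdhc (0.0098) and Sdhd (-0.028) took the other sign. In the mean of the commonly used subunit genes, control 2 was the lowest control and HuR 2 the highest HuR array. Leaving out both therefore lowers the differences on average. Without control 2 and HuR 2, 15 genes were higher, 6 passed an unadjusted p under 0.05 (6.55% of all genes did), and the groups did not overlap in 2, Cox4i1 and Ndufv1 (1.32% of all genes). There the named genes with the other sign were Ndufb4b (-0.099), Sdhb (-0.0038), Sdhc (0.0070), Uqcrfs1 (-0.016), Atp5e (-0.050) and Sdhd (-0.088). With each array left out in turn, 2 to 6 genes passed an unadjusted p under 0.05, 21 to 50 were higher, and 0 to 2 did not overlap. Same-numbered arrays correlated in their deviations from the group means at -0.079 to 0.64, not every pair was over 0.1, and own numbers correlated best for 2 of 6, so the numbers were not taken as pairs. With the replicate block 0 genes were called, and 3 passed an unadjusted p under 0.05 (Cox7a2l, Ndufb7 and Ndufv3), against 7.53% of all genes. On the row of its own chromosome, an alternative chosen after seeing the data, Atp5l was at 0.089.

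With each array left out in turn, 10 of the 48 named genes took the other sign at least once. Their ranges were -0.013 to 0.063 for Uqcrfs1, -0.091 to 0.11 for Sdhd, -0.034 to 0.16 for Ndufb4b, -0.013 to 0.066 for Sdhb and -0.022 to 0.11 for Atp5e. They were -0.078 to 0.048 for Sdhc, -0.084 to 0.0032 for Uqcrc2, -0.12 to 0.029 for Cox6b1, -0.15 to 0.14 for Atp5l and -0.12 to 0.12 for Cox7a2.

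Of 955 alternative values of the named genes, 41 had the other sign, and 38 genes kept theirs. The cause of these shifts was not tested. The limits are 6 arrays a group, bulk tissue, genes on a plateau, and rows whose identifiers name another chromosome than the gene.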
